A study of Homo sapiens with 12 samples.

Results

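The outer end of the short arm of chromosome 1, from 1 to 30 Mb in build hg19, was examined in a pair of clear cell renal cell carcinoma (ccRCC) lines, labelled 769 and 786. Its members are the CCGG sites that carry at least 1 tag in any library: 28882 of 1019951 such sites in the whole series, out of 52216 CCGG sites that the running site numbers place in the 29 Mb. The stretch was chosen on measured values, namely the share of tags in each 1 Mb and 100 kb bin, with the share cut by MspI read as DNA copy and the HpaII share over the MspI share as lack of methylation. Differences between the lines inside it are therefore given as a description.

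Each line was sampled as 1 control and 2 AA-treated samples, where AA is the label's own term and the series title names ascorbic acid. The labels give no dose, time or passage and do not say whether replicates were separate cultures, so p-values measure only the spread between these samples. With 1 control per line, the spread between controls was not measured. In the fits by line the spread came from the 2 AA samples of each line alone, pooled over the lines. Both lines are labelled only as ccRCC lines, and HELP-tagging of DNA holds no expression by which to check that. From each of the 6 DNA samples a portion was cut with HpaII and another with MspI, which gave 12 libraries.

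HELP-tagging ligates an adapter to the cut CCGG ends and counts a short tag beside each site. MspI cuts CCGG whatever the state of its inner cytosine, while HpaII is blocked when that cytosine is methylated or hydroxymethylated. TET enzymes oxidise 5-methylcytosine and use ascorbic acid as a cofactor, so that both modified forms bear on the reading. The band region at the end of this arm, 1p36 to 1p35, is gene-rich and holds tumour suppressor candidates such as TP73, AJAP1 and ARID1A. CpG islands at promoters are as a rule unmethylated, whereas isolated CpG sites are mostly methylated.

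Library totals ran from 189704 tags (HpaII, 786 control) to 12442031 tags (MspI, 769 control). Tags were spread unevenly over the sites of the stretch. HpaII tags fell on 2170, 6091 and 2576 sites in the 769 control, AA 1 and AA 2, and on 1159, 8338 and 9175 sites in the 786 control, AA 1 and AA 2. Both controls thus had the fewest tagged HpaII sites of their line, and this difference runs along with every comparison of AA with control below; its part in those results was not tested. In 100 kb bins the 786 control often had only a few HpaII tags.

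Promoters were located on hg19 without an annotation, by matching the CCGG spacing of RefSeq promoter sequences (GRCh38.p14, 250 bases before to 50 bases after the start) to the positions in the files. With at least 5 tagged sites required, 104 RefSeq promoters fell in the stretch, all listed on chromosome 1, and merging those with shared sites left 97. The sequences below are the 250 bases before the start, 5′ to 3′ on the strand of the gene, with each CCGG in capitals as the only places where either enzyme can cut. They are shown because the tags at these sites carry the promoter results: PRKCZ (chr1:2005368-2005552, first to last matched CCGG) and PGD (chr1:10458906-10459075) had few HpaII tags in at least 1 line, TP73 (chr1:3568887-3569109), AJAP1 (chr1:4714429-4714640) and ARID1A (chr1:27022282-27022517) are 3 of the tumour suppressor candidates described, and PHACTR4 (chr1:28696093-28696291) and RCC1 (chr1:28844594-28844779) stand where the MspI level stepped. All 7 genes are on the plus strand, and the tags given for a promoter also count matched sites in the 50 bases after its start, which are not printed.
PRKCZ: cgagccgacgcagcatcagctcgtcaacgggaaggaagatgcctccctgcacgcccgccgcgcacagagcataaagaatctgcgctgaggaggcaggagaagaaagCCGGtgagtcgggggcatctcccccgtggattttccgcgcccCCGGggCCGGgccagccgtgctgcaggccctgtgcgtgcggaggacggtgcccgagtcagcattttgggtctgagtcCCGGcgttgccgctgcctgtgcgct
PGD: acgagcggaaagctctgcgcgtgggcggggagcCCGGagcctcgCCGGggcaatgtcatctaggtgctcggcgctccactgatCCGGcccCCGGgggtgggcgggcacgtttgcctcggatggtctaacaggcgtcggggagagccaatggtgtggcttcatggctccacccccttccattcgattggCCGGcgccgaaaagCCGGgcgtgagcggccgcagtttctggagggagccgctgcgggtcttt
TP73: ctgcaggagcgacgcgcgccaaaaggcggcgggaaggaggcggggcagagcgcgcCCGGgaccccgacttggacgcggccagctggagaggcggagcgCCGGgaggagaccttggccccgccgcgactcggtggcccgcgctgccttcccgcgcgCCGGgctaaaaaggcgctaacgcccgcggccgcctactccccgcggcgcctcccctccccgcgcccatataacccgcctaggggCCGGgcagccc
AJAP1: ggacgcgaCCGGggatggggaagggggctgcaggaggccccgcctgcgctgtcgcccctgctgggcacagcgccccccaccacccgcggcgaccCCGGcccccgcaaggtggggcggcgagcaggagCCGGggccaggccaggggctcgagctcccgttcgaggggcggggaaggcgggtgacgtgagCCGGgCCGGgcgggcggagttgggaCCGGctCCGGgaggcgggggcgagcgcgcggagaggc
ARID1A: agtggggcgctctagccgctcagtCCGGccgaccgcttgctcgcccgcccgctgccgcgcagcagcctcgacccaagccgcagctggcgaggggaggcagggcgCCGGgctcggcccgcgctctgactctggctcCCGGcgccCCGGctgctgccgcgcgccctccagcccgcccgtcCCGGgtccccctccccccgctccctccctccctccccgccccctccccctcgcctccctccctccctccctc
PHACTR4: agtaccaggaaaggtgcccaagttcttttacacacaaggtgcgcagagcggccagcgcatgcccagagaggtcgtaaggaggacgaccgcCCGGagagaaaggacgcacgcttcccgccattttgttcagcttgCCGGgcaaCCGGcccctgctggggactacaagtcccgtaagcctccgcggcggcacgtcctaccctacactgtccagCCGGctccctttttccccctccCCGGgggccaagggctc
RCC1: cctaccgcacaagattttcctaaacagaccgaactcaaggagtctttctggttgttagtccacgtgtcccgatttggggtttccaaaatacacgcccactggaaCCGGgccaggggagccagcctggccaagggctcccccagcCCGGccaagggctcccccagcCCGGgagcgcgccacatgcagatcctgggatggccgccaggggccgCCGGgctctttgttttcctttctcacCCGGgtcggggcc

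The stretch is dense in CCGG. Its 1 Mb bins held 781 to 4451 reference CCGG sites (median 1599), against a median of 592 over 2887 bins of the genome, and all 29 lay above that median. The outermost 3 bins held the most, with 4451, 3563 and 3149 sites.

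MspI tags of the stretch were about 2 times as frequent in 786 as in 769. The stretch took 1.93%, 1.89% and 1.79% of MspI tags in the 769 control, AA 1 and AA 2, and 3.69%, 3.61% and 3.76% in the 786 control, AA 1 and AA 2. The lines did not overlap. Both AA samples of 769 lay a little below their control, and those of 786 on either side of it. The mean was 1.87% ± 0.0697 (SD, n = 3) in 769 and 3.69% ± 0.0783 (SD, n = 3) in 786, a ratio of 1.97 ± 0.0848 (SD carried from both). Counting error is small beside this: the widest 95% Wilson interval of any of the 12 shares was that of HpaII in the 786 control, 3.17% to 3.34%, and such intervals cover counting error only, since tags amplified by PCR are not independent molecules. With each tagged site counted once, so that the number of tags on it does not matter, the ratio was 1.49.

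The excess held along almost the whole stretch. In 28 of 29 bins of 1 Mb the MspI ratio of 786 over 769 was 1.5 or more, against 324 of 2855 bins of the genome, and its median was 2.06 against 1.01 over all bins (5th to 95th percentile 0.592 to 1.80). All 3 samples of 786 lay above all 3 of 769 in all 29 bins, where 20.1% of bins in the genome do so and 20.2% show the reverse, seen in 0 of the 29. edgeR called all 29 higher in 786, against 12.3% of bins in the genome. In bins of 100 kb the lines were apart with 786 above in 216 of 262 (10.9% in the genome), and edgeR called 165 of 254 (2.53% in the genome). Since the stretch was chosen on this contrast, nothing is read from these counts.

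The highest ratios were those at 25 to 26 Mb (2.49), 26 to 27 Mb (2.36) and 17 to 18 Mb (2.35). The lowest were at 29 to 30 Mb (1.18), 16 to 17 Mb (1.64) and 28 to 29 Mb (1.67). The bin at 16 to 17 Mb had 20.4% of its MspI tags at sites whose counts are not whole, where the authors split tags between places. With whole-count sites only its ratio was 1.83. The same restriction gave 2.58 in place of 2.35 at 17 to 18 Mb, and 2.29 in place of 1.97 at 13 to 14 Mb, where 46.0% of MspI tags were at such sites. Just outside the chosen range stood 1.51 at 0 to 1 Mb, with 88.7% of MspI tags at sites that are not whole, and 1.16 at 30 to 31 Mb.

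**Figure D1:**
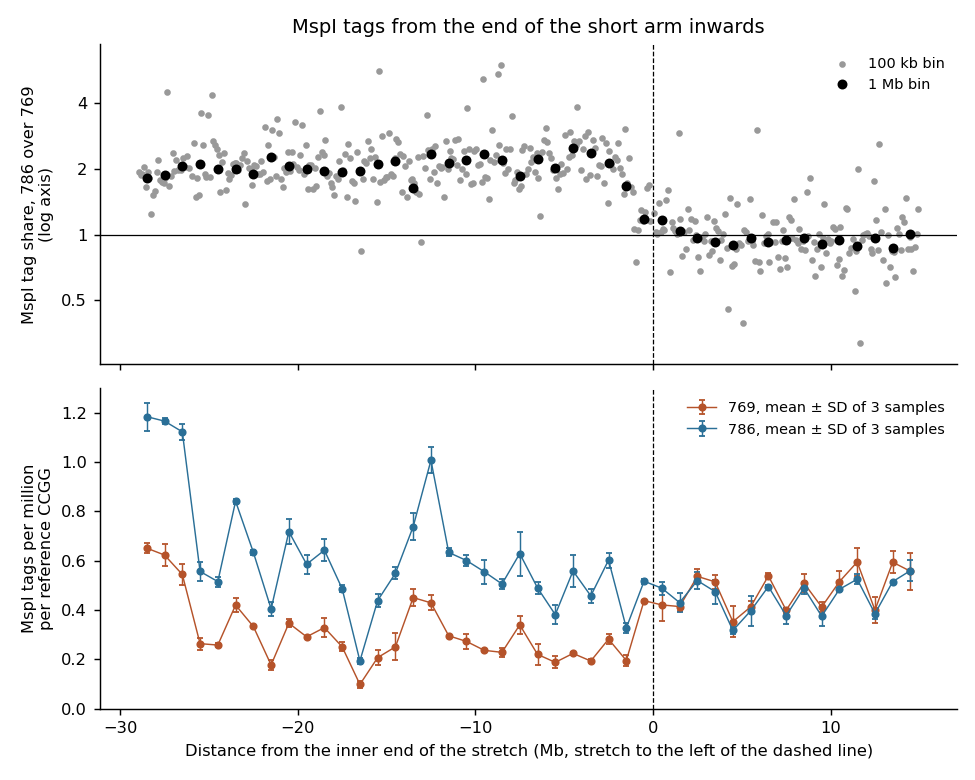
MspI tags by bin from 1 to 45 Mb, drawn as distance from the inner end of the stretch (dashed line). Top, ratio of the mean MspI share of 3 samples of 786 to that of 3 samples of 769 on a log axis, for 100 kb bins with at least 10 CCGG sites (grey) and 1 Mb bins (black). Bottom, MspI tags per 1e6 of the library, per reference CCGG, in 1 Mb bins, mean ± SD of 3 samples per line; the ratio is near 2 up to about 1 Mb before the inner end, and the curves of both lines meet beyond it.

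The ratio fell back towards 1 between 28.7 and 28.9 Mb. From 28 to 28.7 Mb it was 2.06, and in all 7 bins of 100 kb the lines did not overlap. From 28.7 to 28.9 Mb, with the PHACTR4 promoter just before it and the RCC1 promoter inside it, it was 1.58, and in both bins the lines overlapped. From 28.9 to 30 Mb it was 1.16, with lines apart in 1 of 10 bins, and from 31 to 45 Mb 0.941, with 786 above 769 without overlap in 4 of 140 bins. PHACTR4, which encodes a regulator of actin and protein phosphatase 1, had 8, 17 and 1 MspI tags in the 769 control, AA 1 and AA 2, and 48, 23 and 85 in those of 786. At RCC1, the nucleotide exchange factor for Ran, all 3 samples of 786 and the first AA sample of 769 had MspI tags at most of its 6 sites, while the other 2 samples of 769 had them at 1 and at 2 of the 6.

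The order of the lines differed between the stretch and the arm further in. Per reference CCGG, 769 had 0.383, 0.373 and 0.354 MspI tags per 1e6 tags of the library from 1 to 28 Mb (control, AA 1, AA 2) and 0.529, 0.511 and 0.495 from 31 to 45 Mb. In 786 the corresponding levels were 0.742, 0.726 and 0.757 from 1 to 28 Mb and 0.484, 0.473 and 0.486 from 31 to 45 Mb. Between these intervals the level was thus higher further in for every sample of 769 and lower for every sample of 786. Just inside the step, from 28.9 to 30 Mb, every sample of 786 was still above every sample of 769, with means of 0.540 and 0.465. Because sites in dense and sparse surroundings are tagged with different ease, levels were also compared between tagged sites with like numbers of CCGG in the 1 kb around them. These CCGG were counted from the first to the last tagged site in that 1 kb. Untagged CCGG beyond these were missed, so that the class depends in part on the tags. Within each of the 4 density classes, the level from 1 to 28 Mb was 0.468 to 0.617 times that from 31 to 45 Mb in every sample of 769, and 0.983 to 1.31 times in every sample of 786. In a library share, fewer copies in 769 and more copies in 786 cannot be told apart. Nor can a change in copies per cell and a change in the share of cells that carry it.

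AA did not move these levels detectably. edgeR called 0 of 29 bins different between AA and control in MspI tags (0% of 2855 bins in the genome), with 2 of 29 at an unadjusted p under 0.05, and DESeq2 also called 0.

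Taken over the whole stretch, HpaII followed MspI in both lines. HpaII tags made up 1.67%, 1.67% and 1.54% of the libraries of the 769 control, AA 1 and AA 2, and 3.25%, 3.13% and 3.49% in 786. Divided by the MspI share, this gave 0.866, 0.887 and 0.858 in 769 and 0.881, 0.868 and 0.928 in 786. The 2 sets of 3 values overlapped. The mean ratios were 0.871 ± 0.0151 (SD, n = 3) in 769 and 0.892 ± 0.0316 (SD, n = 3) in 786. The 786 over 769 quotient was 1.03 ± 0.0404 (SD carried from both lines). AA over control was 1.01 ± 0.0238 in 769 and 1.02 ± 0.0482 in 786. Here the SD is that of the 2 AA samples divided by the 1 control, whose own spread was not measured. A value below 1 means that fewer HpaII tags fell here than the MspI share would give.

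That near-equal total held different mixtures of sites, classed by the CCGG between the first and last tagged site in 1 kb. The class thus depends in part on the tags, and an untagged CCGG may stand near a site called isolated here. At isolated tagged sites, those with a count of 1 or 2, HpaII over MspI was 0.152, 0.329 and 0.323 in the 769 control, AA 1 and AA 2, and 0.381, 0.485 and 0.497 in 786. At dense sites, with 16 or more, it was 4.33, 2.66 and 2.39 in 769 and 2.60, 2.21 and 2.55 in 786. The 769 control was thus the lowest of the 6 samples at isolated sites and the highest at dense sites. Outside the stretch the same classes gave 0.159, 0.327 and 0.343 at isolated sites and 3.94, 2.66 and 2.51 at dense sites in 769, so that this order was not particular to the stretch.

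Dense sites near the tip carried less HpaII than those further in. From 1 to 4 Mb, sites with 8 to 15 CCGG in 1 kb, counted in the same way, had ratios of 0.904, 1.00 and 1.00 in 769 and 1.46, 0.996 and 1.02 in 786. From 15 to 30 Mb the same class had 2.60, 2.16 and 1.94 in 769 and 1.69, 1.70 and 1.91 in 786. In each of the 6 samples the value at the tip was the lower one.

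**Figure D2:**
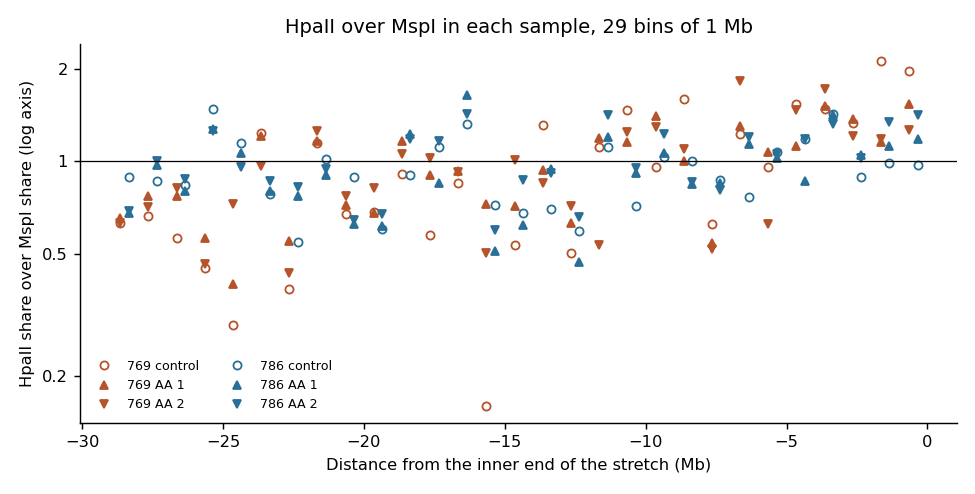
HpaII share over MspI share in each of the 6 samples (log axis) for the 29 bins of 1 Mb, against distance from the inner end of the stretch. Colours mark the lines, open circles the controls and triangles the AA samples; the 769 samples lie below those of 786 in the bins 24 to 26 Mb from the inner end, the 769 control is lowest of all about 15.5 Mb from it, and towards the inner end most 769 points lie above those of 786.

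In 1 Mb bins the lines differed in both directions. HpaII over MspI was higher in all 3 samples of 786 than in all 3 of 769 in 6 of 29 bins (12.8% of bins in the genome) and lower in 7 of 29 (11% of bins in the genome). The 6 were at 1 to 2, 2 to 3, 4 to 5, 5 to 6, 13 to 14 and 22 to 23 Mb, and all 7 lay further in than 6 Mb, 4 of them from 19 to 28 Mb. At 1 to 2 Mb the separation rested on a single site: without the site that held 255 of the 786 HpaII tags of the 786 control, that sample fell from 0.892 to 0.603, below 769. In bins of 100 kb the counts were 39 above (9.47% in the genome) and 23 below (7.12% in the genome) of 262. This contrast chose the stretch as well, and nothing is read from the counts. Across the 29 bins the mean ratios of the lines had a Spearman rho of 0.51, which is a description over bins that share libraries. In 769 the lowest means were at 7 to 8 Mb (0.455), 14 to 15 Mb (0.464) and 5 to 6 Mb (0.473), and the highest at 29 to 30 Mb (1.59), 26 to 27 Mb (1.57) and 28 to 29 Mb (1.48). In 786 the lowest were at 17 to 18 Mb (0.575), 14 to 15 Mb (0.609) and 10 to 11 Mb (0.631), and the highest at 13 to 14 Mb (1.47), 26 to 27 Mb (1.39) and 4 to 5 Mb (1.34).

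The widest gap between the lines was at 4 to 6 Mb. The summed ratio there was 0.381, 0.483 and 0.591 in the 769 control, AA 1 and AA 2, and 1.32, 1.18 and 1.12 in 786. The lines did not overlap, with means of 0.485 ± 0.105 (SD, n = 3) and 1.21 ± 0.106 (SD, n = 3). HpaII tags lay on 39, 180 and 76 sites in 769 and on 64, 484 and 526 in 786. As shares of the tagged sites of this interval these were 2.81%, 13.0% and 5.48% in 769, below the 7.51%, 21.1% and 8.92% of the whole stretch in the same libraries. In 786 they were 4.61%, 34.9% and 37.9%, above the 4.01%, 28.9% and 31.8% of the whole stretch. MspI tags lay on 23.8%, 34.2% and 17.8% of these sites in 769 and on 51.5%, 29.6% and 61.0% in 786. In the whole stretch this was 32.2%, 44.3% and 23.8% in 769, and 60.3%, 35.8% and 68.8% in 786. The tagged sites include those tagged in 1 library alone, and the interval was picked for its gap. Nothing is read from these shares. The 10 sites with most HpaII tags took 80.7%, 32.3% and 52.5% of the tags in 769, and 32.0%, 14.5% and 12.3% in 786.

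The only promoter placed from 4 to 6 Mb, that of AJAP1, carried HpaII tags in both lines. AJAP1 encodes a membrane protein of adherens junctions. Its CCGG sites, printed above, had 215, 71 and 10 HpaII tags in the 769 control, AA 1 and AA 2, and 0, 179 and 35 in 786. The MspI tags were 46, 25 and 5 in 769 and 94, 42 and 76 in 786.

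In 100 kb bins edgeR called 5 of 262 tested bins of the stretch higher in 786 in HpaII over MspI and 0 lower, against 0.813% of bins in the genome called higher and 0.128% called lower. At an unadjusted p under 0.05 stood 53 of the 262, a count not taken over the genome. DESeq2 called 31 higher and 2 lower, against 1328 higher and 113 lower of 15623 bins in the genome. The stretch was chosen on this contrast, and nothing is read from these calls. Of these 5, 2 lay in the interval just described, which was picked for its gap in the same tags. The bin chr1:4600001-4700000 had 0, 2 and 1 HpaII tags in the 769 control, AA 1 and AA 2 and 12, 744 and 256 in 786, and a ratio of tag rates of 119 (95% exact counting interval 40.5 to 577). The bin chr1:4800001-4900000 had 0, 9 and 0 tags in 769 and 19, 887 and 274 in 786. In both, every 786 sample exceeded every 769 sample.

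The other 3 were further in. The bin chr1:18600001-18700000 had 0, 1 and 0 HpaII tags in 769 and 6, 232 and 134 in 786. The bin chr1:7400001-7500000 had 0, 3 and 0 tags in 769 and 2, 254 and 122 in 786. The bin chr1:24600001-24700000, with the promoter of GRHL3-AS1, an antisense transcript at the GRHL3 epidermal transcription factor gene, had 1, 98 and 14 tags in 769 and 16, 1038 and 324 in 786. With the second AA sample of 769 left out no bin of the stretch was called.

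Of the bins lower in 786, the 3 with the smallest p did not pass, and 2 of them held a placed promoter. The bin chr1:20900001-21000000, with DDOST, a subunit of the oligosaccharyltransferase, had HpaII over MspI of 1.71, 2.24 and 1.71 in 769 and 0.800, 0.688 and 0.825 in 786. The bin chr1:25000001-25100000, with CLIC4, an intracellular chloride channel protein, had 5.39, 2.12 and 8.03 in 769 and 1.14, 1.74 and 0.799 in 786. The bin chr1:17900001-18000000 had 0.117, 0.254 and 0.135 in 769 and 0, 0.0566 and 0.0633 in 786.

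The stretch was chosen on the difference between the lines, and the AA comparison uses the same HpaII and MspI values, with its earlier results known. In 1 Mb bins both AA samples of 769 lay above their control in 17 of 29 bins (40% of bins in the genome) and below in 8 (34.8% of bins in the genome). Both AA samples of 786 lay above their control in 14 of 29 (53.2% in the genome) and below in 11 (29.4% in the genome). In bins of 100 kb 769 was above in 115 of 262 (38.1% in the genome) and below in 69 (27.8% in the genome), and 786 above in 132 (57.6% in the genome) and below in 77 (24.9% in the genome). As shares of the stretch, bins above the control were 58.6% (1 Mb) and 43.9% (100 kb) in 769, and 48.3% and 50.4% in 786. Each rests on 1 control, and that of 786 was the shallowest HpaII library. Nothing is read from their distance to the shares in the genome.

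Fitted over 1 Mb bins, HpaII over MspI passed edgeR's threshold with AA in 2 of 29 bins in 769, both higher (3.23% of bins in the genome called higher), and in 1 of 29 in 786, lower (1.81% in the genome called lower). In 769 the bin at 14 to 15 Mb rose by 1.95 ± 0.384 (log2, SE; adjusted p = 0.0257, edgeR), from 0.160 in the control to 0.729 and 0.504 in AA 1 and AA 2. This is the bin with the fewest CCGG sites of the stretch, 781, and in 786 its values were 0.719, 0.510 and 0.598. The effect differed between the lines there and in no other bin of 1 Mb of the stretch (2.47% in the genome called lower; 786 minus 769, -2.44 ± 0.573, adjusted p = 0.0392, edgeR). The bin at 3 to 4 Mb also rose in 769, by 0.53 ± 0.128 (log2, SE; adjusted p = 0.0418, edgeR). In 786 the outermost bin, 1 to 2 Mb, fell by 0.49 ± 0.113 (log2, SE; adjusted p = 0.0416, edgeR), from 0.892 to 0.681 and 0.692. This fall rested on 1 site of the shallowest library: without the site that held 255 of its 786 HpaII tags there, the control was at 0.603, below AA 1 at 0.677 and AA 2 at 0.687, and the fitted change was 0.07 ± 0.116 (log2, SE; adjusted p = 0.796, edgeR). In both lines together 0 of 29 passed (0% in the genome), with 3 at an unadjusted p under 0.05; DESeq2 was not run on bins of this size for HpaII.

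With both lines in 1 fit, 2 of 262 bins of 100 kb were called higher with AA (0.294% of bins in the genome) and 0 lower (0.0128% in the genome, 0.307% in either direction). At an unadjusted p under 0.05 stood 46, a count not taken over the genome. DESeq2 called 9 higher and 1 lower, against 505 higher and 53 lower of 15623 bins in the genome. At chr1:3200001-3300000 HpaII over MspI was 0.0724, 0.646 and 0.751 in the 769 control, AA 1 and AA 2, and 0.356, 0.690 and 1.02 in 786. All 4 AA samples exceeded their control, with 61, 723 and 373 HpaII tags in 769 and 21, 2277 and 1294 in 786. The fitted change was 2.36 ± 0.445 (log2, SE), with an adjusted p of 0.0466 by edgeR's quasi-likelihood test.

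At chr1:9400001-9500000 the HpaII tags were 3, 127 and 25 in 769 and 0, 493 and 148 in 786, and all 4 AA samples again exceeded their control (adjusted p = 0.0330, edgeR). The ratio of tag rates of AA to control in 769 was 35.2 (95% exact counting interval 11.8 to 173). In 786, with the control at 0, the mean of the AA samples was at least 2.15-fold higher against a floor of 3 tags in that library. Leaving out either AA sample of 769 ended both calls, with adjusted p of 0.132 to 0.216 (edgeR), and so did thinning every library to the smallest of its enzyme, with 0.167 and 0.324.

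The bins nearest to a fall with AA in both lines were chr1:22100001-22200000, with HpaII over MspI of 0.234, 0.102 and 0.00787 in 769 and 0.370, 0.0453 and 0.0699 in 786, and chr1:21800001-21900000. The latter holds the promoter of ALPL, the tissue-nonspecific alkaline phosphatase of bone, liver and kidney, and had 2.53, 0.320 and 0.277 in 769 and 0.855, 0.437 and 0.568 in 786. In the 769 control 76.4% of the HpaII tags of that bin were at a single site. The third, chr1:1100001-1200000, had 0.481, 0.541 and 0.240 in 769 and 2.27, 0.617 and 0.515 in 786, and 79.2% of HpaII tags of the 786 control were at 1 site.

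In 769 alone 21 of 262 bins were called higher with AA and 0 lower, 8.02% of the tested bins against 3.58% called higher, 0.147% called lower and 3.73% in either direction in the genome. At an unadjusted p under 0.05 stood 89, a count not taken over the genome. DESeq2 called 49 higher and 16 lower, against 1819 higher and 505 lower of 15623 bins in the genome. In the 21 bins the control had 0 to 150 HpaII tags (median 3), AA 1 had 59 to 738 (median 160) and AA 2 had 6 to 373 (median 37). The control had no HpaII tag in 6 of the 21 and 1 to 3 tags in another 6. The median HpaII over MspI was 0.0112 in the control, 0.594 in AA 1 and 0.497 in AA 2. It was 0.610, 0.795 and 1.02 in the 786 control, AA 1 and AA 2, where the low 769 control is part of how the bins were called.

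Of the promoters placed by at least 4 tagged sites, 1 or more lay in 2 of the 21 bins and in 105 of the 262 tested; promoters that could not be placed are not counted, and the difference was not tested. The 2 were those of DDI2 and SLC45A1, a sugar transporter. The called bins had a median of 145 CCGG sites against 163.5 in all tested.

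The 5 bins with the largest fitted rises all had 0 HpaII tags in the 769 control. At chr1:18000001-18100000 the AA samples had 152 and 37 tags, at least 36.4-fold higher against a floor of 3 tags (adjusted p = 0.00246, edgeR). At chr1:19100001-19200000 they had 105 and 45, at least 33.8-fold higher (adjusted p = 0.00497, edgeR). At chr1:26500001-26600000 they had 237 and 6, at least 50.7-fold higher (adjusted p = 0.0296, edgeR), with 86.9% of the tags of AA 1 at a single site. The bound averages AA samples that differ widely, with HpaII over MspI of 1.55 in AA 1, at least 94.4-fold higher taken alone, and only 0.115 in AA 2, and without AA 1 the adjusted p was 0.0556 (edgeR). At chr1:4200001-4300000 they had 80 and 37, at least 24.0-fold higher (24.9 and 23.1, adjusted p = 0.0146, edgeR). At chr1:7600001-7700000 they had 59 and 32, at least 21.2-fold higher (16.8 and 25.5, adjusted p = 0.00729, edgeR). In all 5 both AA samples rose from a control at 0, and thinning every library to the smallest of its enzyme ended all 5 calls, with adjusted p of 0.280 to 0.583.

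Nearest to a fall in 769 stood the ALPL bin given above (adjusted p = 0.0507, edgeR), and the bin chr1:3500001-3600000 with TP73. There HpaII over MspI was 1.37, 0.524 and 0.699 (fitted change of -1.17 ± 0.341 on the log2 scale, adjusted p = 0.0767, edgeR). The bin chr1:16900001-17000000 had 1.99, 0.726 and 0.792, with 53.9% of the control tags at 1 site (adjusted p = 0.0769, edgeR).

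In 786 alone 1 of 262 bins was called, lower with AA, and 0 higher (0.262% of bins in the genome called lower, 0.122% higher and 0.384% in either direction). DESeq2 called 1 higher and 2 lower, against 46 higher and 120 lower of 15623 bins in the genome. At chr1:9300001-9400000 HpaII over MspI was 2.34 in the control and 0.257 and 0.414 in AA 1 and AA 2, a fitted change of -2.77 ± 0.427 (log2, SE; adjusted p = 0.0104, edgeR). All 109 HpaII tags of that control bin were at a single site (100%), whereas the top site took 24.3% and 12.6% in AA 1 and AA 2. Without that site the control had no HpaII tag in the bin, against ratios of 0.231 and 0.362 in AA 1 and AA 2, so that the direction of the call rests on it. Among rises in 786 none passed. The nearest was chr1:11100001-11200000 with SRM, spermidine synthase, with 0, 863 and 452 HpaII tags (adjusted p = 0.0942, edgeR), then chr1:16400001-16500000 with EPHA2-AS1, with HpaII over MspI of 0.291, 1.58 and 0.927 (adjusted p = 0.131, edgeR), and chr1:9600001-9700000, with 0.101, 0.565 and 0.590 (adjusted p = 0.147, edgeR). At an unadjusted p under 0.05 stood 35 bins in either direction. The bin chr1:1100001-1200000 given above fell just short in 786 (log2 change -1.94 ± 0.388, adjusted p = 0.0570, edgeR), and without the top site of the control its values turned to 0.476, 0.594 and 0.483.

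**Figure D3:**
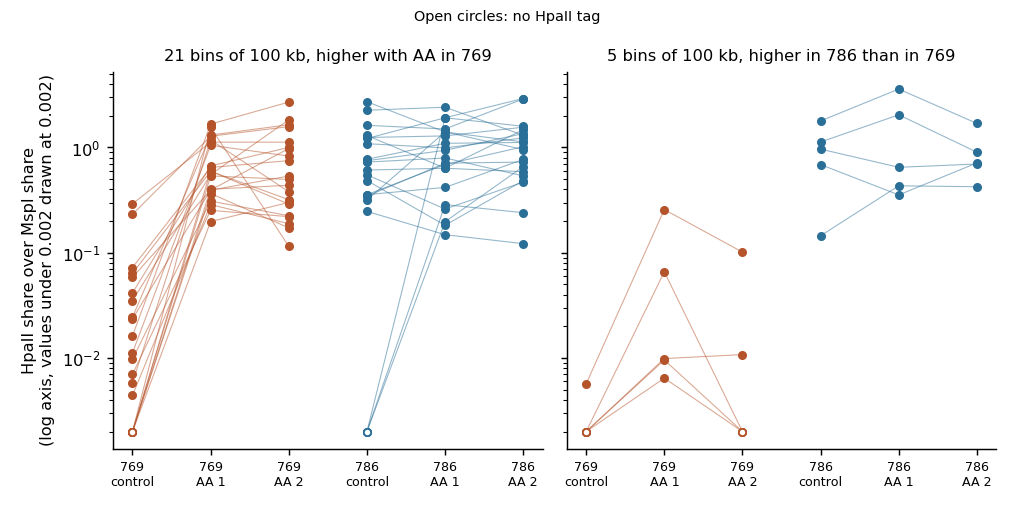
HpaII share over MspI share in each sample (log axis, values under 0.002 drawn at 0.002, open circles without an HpaII tag), for the 21 bins called higher with AA in 769 (left) and the 5 called higher in 786 than in 769 (right). Lines join the samples of 1 bin within a cell line; on the left the 769 control lies below both its AA samples in every bin while most 786 samples are as high as the AA samples, and on the right the 769 samples stay below those of 786.

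The AA effect itself differed between the lines in 4 of 262 bins (0.986% of bins in the genome; 0.166% with the effect more positive in 786 and 0.819% in 769). It was more positive in 769 at chr1:18000001-18100000, at chr1:9300001-9400000 and at chr1:15900001-16000000, the bin of DDI2, a protease of the DNA damage-inducible family. DDI2's bin had 4, 321 and 180 HpaII tags in 769 and 19, 464 and 403 in 786 (adjusted p of the difference 0.0209, edgeR). It was more positive in 786 at the SRM bin, where HpaII over MspI was 2.09, 0.777 and 0.676 in 769 and 0, 0.768 and 1.35 in 786 (adjusted p of the difference 0.0328, edgeR).

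Most placed promoters of the stretch were open to HpaII in both lines. Placement needed at least 5 sites with a tag in any library, HpaII libraries included. Promoters with HpaII tags thus passed more easily, here and elsewhere, and the share of open promoters is in part set by this. Of the 97, 81 (83.5%) had HpaII over MspI above 1 in both lines, against 2994 of 3728 (80.3%) promoters placed elsewhere. Another 8 exceeded 1 in 769 alone, 6 in 786 alone and 2 in neither. An HpaII tag was found at 82, 95 and 82 of the 97 in the 769 control, AA 1 and AA 2, and at 49, 97 and 97 in 786. In 769 these were 84.5%, 97.9% and 84.5%, below the 92.9%, 99.1% and 95.2% elsewhere. In 786 they were 50.5%, 100% and 100%, above the 46.2%, 97.4% and 97.9% elsewhere. The presence of a tag is not divided by MspI, whose level differed between the lines here. Its part in these shares was not tested, and they are not read as methylation. The median ratio was 3.43 in 769 and 2.61 in 786, against 3.26 and 2.55 elsewhere. The median MspI level of 786 over 769 was 2.12 here and 0.857 elsewhere, and that of HpaII 1.40 and 0.667.

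All 5 HpaII libraries other than the shallow 786 control had a tag at 69 of the 97 (71.1%, against 88.5% of placed promoters in the genome). This share is not divided by MspI either, and the part of the MspI level in it was not tested. Of the 97, 4 (4.12%) lacked one in at least 2 of those 5, against 3.66% of placed promoters in the genome. These 4 were PGD, MFAP2, NCMAP and ASAP3, and they were singled out after their values were seen. PGD encodes 6-phosphogluconate dehydrogenase of the pentose phosphate pathway. Its 6 CCGG sites had 0, 1 and 0 HpaII tags beside 60, 2 and 20 MspI tags in the 769 control, AA 1 and AA 2. In 786 they had 0, 29 and 40 beside 41, 14 and 12. HpaII tags were thus close to absent in 769, and in 786 both AA samples had them.

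NCMAP, a myelin-associated membrane protein, had 0, 2 and 0 HpaII tags in 769 and 0, 168 and 28 in 786, with MspI tags of 5, 2 and 10 in 769 and 24, 25 and 16 in 786. MFAP2, a protein of elastic microfibrils, had 0, 14 and 0 in 769 and 0, 24 and 7 in 786. ASAP3, an Arf GTPase-activating protein, had 0, 0 and 24 in 769 and 0, 45 and 24 in 786, with only 0, 2 and 0 MspI tags in 769, so that little can be said of it in that line. In PGD, NCMAP and MFAP2 the 769 control and AA 2 both stood at 0.

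PRKCZ, which encodes the atypical protein kinase C zeta, was low in both lines. It had 8, 1 and 0 HpaII tags beside 2, 26 and 30 MspI tags in 769, and 0, 6 and 2 beside 34, 70 and 63 in 786. The HpaII over MspI ratio of summed shares was 0.125 in 769 and 0.0437 in 786, against medians over all 97 of 3.43 and 2.61. All 8 HpaII tags of the 769 control were at 1 of its 6 matched sites, where no MspI tag was seen.

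CFAP74, a protein of motile cilia, had the largest fitted difference between the lines among the 22 promoters with enough tags to be tested. It had 80, 27 and 80 HpaII tags beside 23, 34 and 16 MspI tags in 769, and 0, 27 and 8 beside 75, 27 and 56 in 786. Its ratio was 3.75 in 769 and 0.217 in 786, and it was not called.

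**Figure D4:**
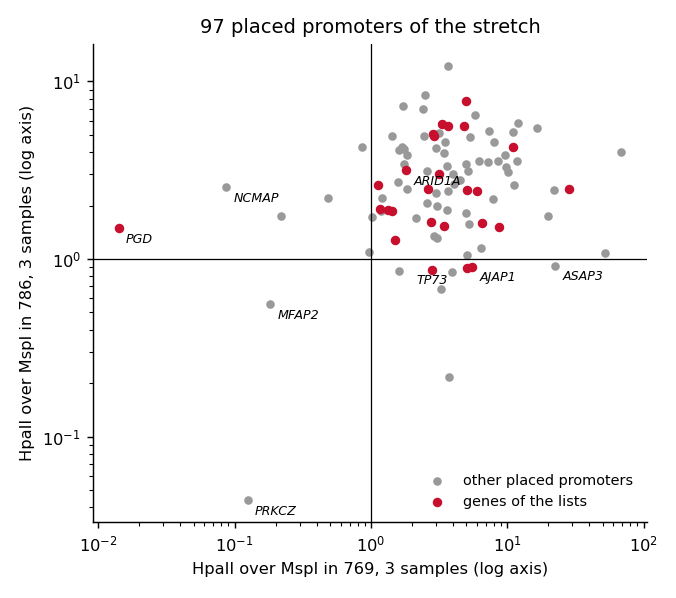
HpaII over MspI from the mean shares of 3 samples in 769 (horizontal) and 786 (vertical), both log axes, for the 97 placed promoters; red marks genes of the lists and black lines mark a ratio of 1. Most points lie above 1 in both lines, PRKCZ and MFAP2 lie below 1 in both, and PGD and NCMAP lie below 1 in 769 only.

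edgeR called 0 of the 22 different between the lines (0.827% of 1572 tested promoters in the genome, 0.191% higher and 0.636% lower in 786), with 0 at an unadjusted p under 0.05 and 0 called by DESeq2 (30 of 1572 in the genome). It called 0 different with AA in both lines (0.0636% in the genome), with 3 at an unadjusted p under 0.05 and 1 called by DESeq2 (40 of 1572 in the genome). In 769 alone CTNNBIP1, an inhibitor of beta-catenin, was called higher with AA (1.97% of promoters in the genome). It had 0, 182 and 64 HpaII tags beside 30, 44 and 11 MspI tags in 769, and 4, 457 and 268 beside 288, 47 and 107 in 786 (adjusted p = 0.0175 in 769, edgeR). Both AA samples of each line exceeded the control, but in both lines together the adjusted p was 0.105.

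Of 103 genes in 7 lists, 26 had a placed promoter, and most of these had too few tags to be tested. Tested were 3 of 7 placed tumour suppressor candidates and 3 of 7 developmental regulators, with TP73 and ARID1A in both lists. Of the others, 1 of 2 placed Eph receptors, 0 of 2 kidney tubule genes and 2 of 11 glycolysis, growth and housekeeping genes were tested. None of those tested was called in either comparison. The tumour suppressor candidates had 7 of 20 placed, 6 with a tag in all 5 deeper HpaII libraries and 1 in 4 of them, with median ratios of 2.86 in 769 and 1.90 in 786. AJAP1 was given above. ARID1A, a subunit of the SWI/SNF chromatin remodeller, had 12, 160 and 1 HpaII tags beside 94, 17 and 14 MspI tags in 769, and 0, 335 and 138 beside 88, 23 and 51 in 786. PRDM2, a histone methyltransferase, had 31, 71 and 56 HpaII tags in 769 and 0, 198 and 81 in 786. All 3 had HpaII tags in every library but that of the 786 control.

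The developmental regulators had 7 of 26 placed, 4 with a tag in all 5 deeper HpaII libraries and 3 in 4 of them. TP73, a p53 family transcription factor, had 224, 23 and 1 HpaII tags beside 11, 10 and 23 MspI tags in 769, and 0, 114 and 54 beside 60, 60 and 74 in 786. Its ratio was 5.05 in 769 and 0.888 in 786, but this order rested on the 769 control: from the AA samples alone it was 0.473 in 769 and 1.17 in 786. SPEN, a transcriptional corepressor, had 137, 90 and 157 HpaII tags in 769 and 10, 350 and 155 in 786. HES5, a target of Notch, had 0, 69 and 1 in 769 and 1, 14 and 48 in 786.

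Both Eph receptors placed, of 3, had HpaII tags in both lines. EPHB2 had 0, 118 and 40 tags in 769 and 0, 231 and 129 in 786, and EPHA8 had 170, 143 and 11 in 769 and 0, 61 and 47 in 786. Among 17 kidney tubule genes, CLIC4 and ALPL were placed. CLIC4 had 314, 153 and 87 HpaII tags in 769 and 5, 282 and 81 in 786, and ALPL had 69, 64 and 17 in 769 and 3, 128 and 45 in 786. Their median ratio was 5.80 in 769 and 2.02 in 786.

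The glycolysis, growth and housekeeping genes had 11 of 34 placed, of which 10 had a tag in all 5 deeper HpaII libraries and PGD in fewer. PARK7, a redox-sensitive chaperone, had 397, 163 and 12 HpaII tags in 769 and 4, 169 and 189 in 786. ELOA, elongin A, had 56, 104 and 3 in 769 and 9, 213 and 132 in 786, and HNRNPR, an RNA-binding protein, had 28, 35 and 36 in 769 and 0, 104 and 66 in 786. No promoter of the TNF receptor superfamily (7 genes) or of the peptidylarginine deiminases (5 genes) was placed.

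Single sites could be read at both enzymes only where MspI tags were many. At least 10 MspI tags in all 6 samples were found at 336 tagged sites of the stretch and 16954 elsewhere. Of the 336, 17 (5.06%) had an HpaII tag in all 6 samples, against 8.27% elsewhere, and 90 (26.8%) had none in any, against 19.0% elsewhere. A tag in all 3 samples of 786 and none in 769 was found at 6 sites (1.79%, against 0.932% elsewhere). The reverse was found at 0 of 336, which allows a share of up to 0.893%, against 0.814% elsewhere, so that it could not be told from the rest at this depth. The shares of sites with an HpaII tag are not divided by MspI, whose level in the stretch was higher in 786. Its part in them was not tested, and nothing is read from the line difference, on which the stretch was chosen.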

How the data were processed

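Per the labels, HpaII and MspI libraries were made from the same DNA by HELP-tagging with 18 PCR cycles, and the submitters' processing notes name hg19. No label or header names the aligner. The estimated counts of tags per CCGG site were made by the authors and deposited for each library, with some not whole (tolerance 1e-06) where tags were split between sites, per the file values; they were rounded for the tests. The members of the stretch and the gene lists were chosen with earlier results of these data known.

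Tags were summed in bins of 100 kb and 1 Mb and divided by the library's tags on chromosomes 1 to 22 and X. Bins and promoters with at least 10 MspI tags in every library and 10 HpaII tags in all were fitted with edgeR 4.0.16 (quasi-likelihood test, TMM within each enzyme, a term per DNA sample; adjusted p under 0.05 by Benjamini-Hochberg over the whole genome); 1 Mb MspI bins needed 20 tags and 100 CCGG sites. DESeq2 1.42.0, other filters and scalings, 1 Mb bins, thinned libraries and samples left out were the alternatives. The test code was tested on simulated data. Named 1 Mb bins are the 3 highest and 3 lowest of each readout; named 100 kb bins the 5 largest past the threshold with all samples moving alike, otherwise those with the smallest p, up to 3; named promoters those past the threshold and, per list, the 3 with most MspI tags, and others are marked where named (HES5 among the regulators, CFAP74, PRKCZ and the step genes were also chosen after their values were seen). Placement by at least 5 tagged sites put 4001 of 4011 promoters (99.75%) on the chromosome RefSeq lists; requiring at least 4 was an alternative chosen after seeing the data. Total counts per library, from 189704 to 12442031, limit the precision.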

Additional observations from a re-analysis of the deposited data

Results flagged for a closer look

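In 4 bins of 100 kb the AA effect differed between the lines by edgeR's test of the difference, each given as the log2 effect in 786 minus that in 769. At chr1:11100001-11200000, with SRM, the fitted difference was 13.68, and with the 786 control at 0 HpaII tags its size depends on the prior count; without the first AA sample of 769 its adjusted p was 0.0624. At chr1:18000001-18100000 it was -9.97, with the 769 control at 0, and thinning the libraries gave an adjusted p of 0.263. At chr1:15900001-16000000, with DDI2, it was -7.35, with 4 HpaII tags in the 769 control, and its adjusted p stayed between 6.26e-06 and 0.0439 over the 9 alternatives run. At chr1:9300001-9400000 it was -2.91, with all HpaII tags of the 786 control at 1 site, without which that control has none there; thinning the libraries gave an adjusted p of 0.168 and leaving out the first AA sample of 769 gave 0.0729. All 4 rest on a control bin with few HpaII tags or tags at 1 site in 1 of the lines, and the part of this in the difference was not tested.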

How the results depend on the processing

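Counts of called 100 kb bins in the stretch depended on the processing, and the cause was not tested. For AA in both lines, the line difference, AA in 769, AA in 786 and the difference of AA effects, in that order, the counts were 2, 5, 21, 1 and 4. With DESeq2 they became 10, 33, 65, 3 and 32 (558, 1441, 2324, 166 and 972 of 15623 bins in the genome). With no low count filter they were 8, 22, 45, 7 and 18 (343, 616, 1051, 356 and 600 of 27967 in the genome). When each library had to hold at least 10 HpaII tags, which leaves 141 bins, they were 1, 0, 12, 3 and 1 (9, 123, 196, 69 and 79 of 4384 in the genome). With libraries thinned to the smallest of each enzyme they were 0, 2, 2, 3 and 4 (the last with 3 in place of 1 more positive in 786), against 20, 176, 27, 122 and 90 of 11169 in the genome. With 1 Mb bins they were 0, 2, 2, 1 and 1 (0, 84, 103, 74 and 101 of 2877 in the genome). Leaving out 1 DNA sample gave 0 to 6 (0 without either AA sample of 769, 6 without either of 786), 0 to 11 (0 without the second AA sample of 769), 26 to 39, 2 to 4 and 3 to 9; without a line's control its AA effect could not be fitted. With the AA number as a replicate block they were 4, 18, 46, 8 and 24 (202, 494, 1034, 354 and 682 of 15623 in the genome). The AA numbers do not pair the samples: AA 1 minus AA 2 correlated between lines at 0.00596 (HpaII) and -0.0260 (MspI) over 15623 bins. In MspI tags 28 or 29 of 29 bins of 1 Mb were called in each other setting (28 with the block) and 165 of 254 bins of 100 kb. Of the promoters, AA called 1 with DESeq2, 0 to 1 with a sample left out (1 without the first AA sample of 786), and otherwise 0, the block and placement by 4 sites included. The MspI ratio of 1.97 was 1.49 with each tagged site counted once and 1.66 as a share of chromosome 1, of which the stretch is a part. The HpaII over MspI quotient of the lines was 1.07 with each site counted once. AA over control was 1.06 with whole-count sites, 1.04 with the tags of the most tagged sites capped and 0.926 within chromosome 1 in 769, and 0.956 with each site counted once and 1.14 within chromosome 1 in 786. Left out after the data were seen, 1 site or library turned several results. Without the top site of the 786 control, AA over control in 786 went from 0.770 to 1.13 at 1 to 2 Mb and from 0.249 to 1.13 at 1.1 to 1.2 Mb. The 786 control itself went from 0.892 to 0.603 at 1 to 2 Mb, below the 769 samples. At 9.3 to 9.4 Mb it went from 2.34 to 0, below both AA samples of 786. Without the 769 control, 786 over 769 at the TP73 promoter went from 0.176 to 1.88. In the other settings no named bin reversed its direction.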
